A study of Mus musculus with 12 samples.

Results

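Collagen and fibroblast matrix genes were followed as a list of 40 mouse genes in 8 roles: fibrillar, network-forming, and beaded-filament or fibril-associated collagens, glycoproteins, proteoglycans, enzymes of collagen processing and crosslinking, proteases, and protease inhibitors. Members were found by gene symbol through the Entrez identifier of each row, a step that used no measured value. The list itself was chosen with earlier results of these data known. Of the 40 genes, 37 were in the table of 17571 genes, 26 were expressed (FPKM, sequenced fragments scaled to the length of the transcript and to the size of the library, of at least 1 in at least 3 libraries), and 11 stayed under that level. Col11a1, Lum and Plod2 were not analysed here.

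RNA-seq was done on L929 cells, a line derived from subcutaneous connective tissue of a C3H/An mouse, in 4 groups of 3 libraries each. Mock cells received the vehicle DMSO and no plasmid. The pEGFP-N1 group received DMSO and then pEGFP-N1, a plasmid that encodes green fluorescent protein. The BX795 group received 0.5 μM BX795, an inhibitor of TBK1, the kinase that links cytosolic DNA sensing to interferon genes, and of PDK1, while the BX795 plus pEGFP-N1 group received both. The drug or vehicle was added 1 h before the plasmid, and RNA was taken at 6 h. All groups are 1 cell line, and no source used here says that the libraries of a group came from separate cultures, so p-values measure only the spread between these libraries, which may be technical. Depth is unknown, since FPKM holds no read totals.

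Fibroblasts build the extracellular matrix of connective tissue. Fibrillar collagens are secreted as triple helices, which need prolyl and lysyl hydroxylases and the chaperone Hsp47 inside the cell and lysyl oxidases outside it. Collagen VI is a trimer of 3 different chains that forms beaded filaments, collagen IV forms basement membrane sheets, and metalloproteinases, held back by TIMPs, take the matrix apart.

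Markers were read first. Of the fibroblast markers that are not members, 3 of 5 in the table were expressed, Pdgfrb (a receptor for platelet-derived growth factor, 30.6 to 30.92 FPKM in mock), Vim (vimentin, 2036 to 2101 FPKM in mock) and S100a4 (4504 to 4741 FPKM in mock), while Thy1 and Fap, and also the member Dcn, stayed under 1 FPKM in every library. Of the epithelial and endothelial markers, 0 of 6 and 0 of 5 were expressed. Cd68, a lysosomal protein of macrophages, and Fabp4, a fatty acid carrier, were expressed, and the pan-leukocyte gene Ptprc was at or near 0. A pair of libraries went against their labels in interferon-stimulated genes: Ifit1 was at 96.67, 0.00 and 95.24 FPKM in libraries with the label pEGFP-N1, and at 92.64, 0.17 and 0.57 FPKM in those labelled BX795 plus pEGFP-N1. The library labelled pEGFP-N1 replicate 2 and the library labelled BX795 plus pEGFP-N1 replicate 1 therefore stand apart from their groups. Whether these libraries were exchanged was not tested, so a value over all 12 libraries describes the labels, and results that rest on them are given with and without them. In BX795 plus pEGFP-N1 replicate 3, the deviation of a gene from its mock mean rose with transcript length (Spearman rho of 0.434 across 7323 genes, which are not independent), against -0.223 to 0.14 in the other 11 libraries.

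In mock cells the expressed members ran from 2.96 ± 0.06 FPKM for Fbn1, the microfibril protein fibrillin, to 380 ± 1.1 FPKM (SD, n = 3) for Serpinh1, which encodes Hsp47. Serpinh1 was at 378.57, 380.20 and 380.69 FPKM in mock. The secreted glycoprotein Sparc, which binds collagen, came next with 169.36, 171.68 and 170.00 FPKM. These levels did not overlap with each other or with the next gene. Fbln2 (fibulin 2, a glycoprotein of elastic fibers and basement membranes; 109.74, 107.69 and 109.40 FPKM) and Timp1 (110.63, 107.49 and 103.31 FPKM) overlapped, and Timp1 overlapped with Bgn (the small proteoglycan biglycan; 104.41, 104.01 and 104.71 FPKM). Over the whole order, 13 of 25 neighbouring pairs overlapped in their mock ranges.

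Expression was uneven within the roles. All 5 fibrillar collagens in the table were expressed, from Col3a1 at 4.32 ± 0.26 FPKM to Col1a1 at 58.2 ± 2.0 FPKM (SD, n = 3). All 3 network-forming collagens were expressed, led by Col4a1 (62.72, 65.39 and 65.13 FPKM). Of the beaded-filament or fibril-associated collagens, the 3 collagen VI chains were expressed and Col12a1 was not. Among 9 glycoproteins, Sparc, Fbln2, Fn1 (fibronectin), Thbs2 and Fbn1 were expressed, while Postn, Thbs1, Tnc and Ctgf (also called Ccn2) were not. Of the proteoglycans in the table Bgn was expressed and Dcn and Vcan were not. Processing enzymes were expressed in 6 of 7 cases. Lox, the founding lysyl oxidase, was listed at 0.00 FPKM in 10 of the 12 libraries, whereas its relative Loxl1 was at 46.78, 48.69 and 44.41 FPKM in mock. Of the proteases, Mmp14, a membrane-bound collagenase (33.67, 33.05 and 35.86 FPKM in mock), was expressed, and the secreted proteases Mmp2 and Mmp3 were not. Timp2 (65.44, 66.26 and 64.77 FPKM in mock) was expressed beside Timp1, and Timp3 was not. The highest value of any of the 11 members under the filter, in any library, was 0.33 FPKM for Vcan. Loxl2 shares 46.2% of its 31-base stretches with other genes in the GENCODE transcripts, so its FPKM (2.83 to 3.22 in mock) is uncertain.

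**Figure D1:**
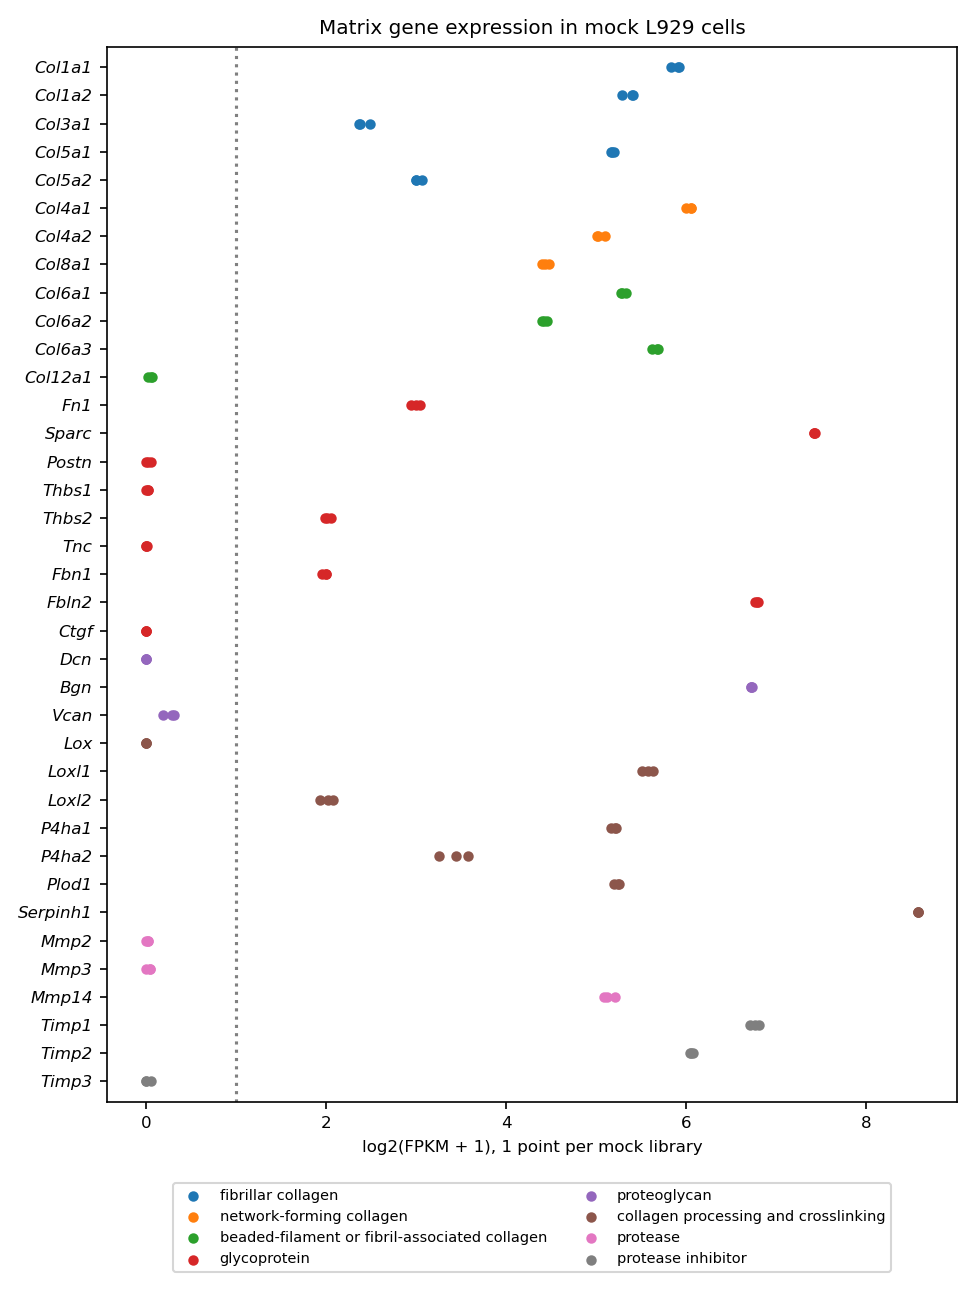
Expression of the 37 matrix genes in the table in the 3 mock libraries, on the log2(FPKM + 1) scale (horizontal axis), 1 point per library, with color for role; the dotted line marks 1 FPKM. A gap without genes separates the 11 genes near 0 from the 26 expressed genes, which start at 2.83 FPKM.

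The first comparison asked whether BX795 alone changed these genes. Every BX795 library held less Timp1, Col6a3, Col8a1 and Serpinh1 RNA than any mock library, and more Col6a1, Col6a2, Col1a1 and Col3a1 RNA. The sizes were modest, from 0.692-fold for Timp1 to 1.34-fold for Col6a1, and whether they passed a test depended on which libraries set the spread. Neither library that stands apart is in it, but both widen the shared spread of a fit over all 12 libraries. With limma on log2(FPKM + 1) in all 12 libraries, 0 of the 26 expressed members were called at an adjusted p under 0.05 (4 of 26 had an unadjusted p under 0.05, and 13.8% of all genes tested), where 0.0672% of the 10412 genes tested were called (0.0384% higher and 0.0288% lower). Fitted on the 6 mock and BX795 libraries alone, 7 members rose and 4 fell, 11 of 26 (42.3%), where 20.6% of all genes tested were called (12.7% higher and 7.97% lower). The median log2 fold change of the members was 0.02. The members higher with BX795 were Col1a1, Col3a1, Col5a1, Col5a2, Col6a1, Col6a2 and Mmp14, and those lower were Col6a3, Col8a1, Serpinh1 and Timp1. The ranges of the 3 mock and 3 BX795 libraries did not overlap in 15 of 26 members (8 higher, 7 lower), which was the case for 39.8% of all genes tested (23.6% higher, 16.2% lower). With the 2 libraries that stand apart left out of the fit of all groups, 4 members rose and 4 fell, 8 of 26, where 14.1% of all genes tested were called (8.96% higher and 5.12% lower). Leaving out each of the 6 libraries in turn, an alternative added after seeing these values, left 6 to 18 members called, with 6 called each time: Col1a1, Col3a1, Col6a1, Col6a2, Col6a3 and Timp1. The highest count, 18, came without BX795 replicate 1, where 42.2% of all genes tested were called, and the lowest, 6, without mock replicate 1, where 8.24% were. Without mock replicate 3 or BX795 replicate 2 it was 7, where 10.2% and 9.3% of all genes tested were called. Adjusted p-values in the rest of this comparison are from limma on those 6 libraries unless the fit of all 12 is named, and a fold change is one of FPKM + 1. The naming rule takes calls from the fit of all 12 libraries, which made none, so members given for a call in a fit of fewer libraries, such as Col3a1 and Col6a2, were chosen after their values were seen.

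Timp1, a secreted inhibitor of metalloproteinases, had the smallest p of the members. It was at 110.63, 107.49 and 103.31 FPKM in mock cells and 70.33, 74.79 and 76.30 FPKM under BX795. Every BX795 library was below every mock library. The log2 fold change was -0.53 (SE 0.05, 0.692-fold, adjusted p = 0.000183), and with the spread of all 12 libraries the SE was 0.13 and limma's adjusted p 0.167. Timp2, which also helps to activate pro-Mmp2, was at 65.90, 80.27 and 80.19 FPKM under BX795, and overlapped with mock (log2 fold change 0.20, SE 0.07, adjusted p = 0.0842). The ratio of Timp1 to Timp2 FPKM was 1.6 to 1.69 in mock and 0.932 to 1.07 with BX795. Mmp14 was at 37.64, 38.15 and 38.81 FPKM under BX795, above all 3 mock libraries (log2 fold change 0.16, SE 0.05, adjusted p = 0.0418).

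The collagen VI chains moved in different directions. Col6a1 (α1 chain) was at 37.83, 39.27 and 37.94 FPKM in mock cells and 52.36, 52.50 and 50.83 FPKM under BX795 (log2 fold change 0.43, SE 0.04, adjusted p = 0.000277). Col6a2 (α2 chain) was at 20.01, 20.93 and 20.38 FPKM in mock cells and 27.00, 28.90 and 26.24 FPKM under BX795 (log2 fold change 0.40, SE 0.05, adjusted p = 0.00104). Col6a3, the long α3 chain, was at 48.16, 50.15 and 50.61 FPKM in mock cells and 43.66, 38.21 and 36.39 FPKM under BX795. It fell by 0.33 on the log2 scale (SE 0.06, adjusted p = 0.00962). No value with BX795 overlapped with mock for any of the 3 chains, and in the fit of all 12 libraries limma's adjusted p was 0.404, 0.387 and 0.292 for Col6a1, Col6a2 and Col6a3. The ratio of Col6a1 to Col6a2 stayed between 1.79 and 2.09 in all 12 libraries, while the ratio of Col6a3 to Col6a1 was 1.27 to 1.33 in mock and 0.716 to 0.834 with BX795.

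The fibrillar collagens split within collagen I. Col1a1, its α1 chain, was at 55.89, 59.50 and 59.10 FPKM in mock cells and 66.11, 76.45 and 73.64 FPKM under BX795 (log2 fold change 0.30, SE 0.06, adjusted p = 0.00849). Col1a2, the α2 chain of the same molecule, was at 41.14, 41.48 and 38.04 FPKM in mock cells and 37.41, 39.85 and 39.84 FPKM under BX795. These ranges overlapped (log2 fold change -0.04, SE 0.05, adjusted p = 0.576). Col3a1, the collagen of loose connective tissue, was at 4.62, 4.16 and 4.19 FPKM in mock cells and 5.64, 5.82 and 5.73 FPKM under BX795 (log2 fold change 0.34, SE 0.06, adjusted p = 0.00718). Collagen V copolymerizes with collagen I and sets fibril diameter. Col5a1 was at 34.90, 35.14 and 35.62 FPKM in mock cells and 43.81, 40.56 and 37.09 FPKM under BX795 (log2 fold change 0.19, SE 0.06, adjusted p = 0.0489). Col5a2, at 7.01, 6.99 and 7.38 FPKM in mock cells and 7.91, 9.39 and 9.41 FPKM under BX795, did not overlap either and showed a log2 fold change of 0.28 (SE 0.07, adjusted p = 0.0266).

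Among network-forming collagens, Col8a1 fell. Its values were 20.52, 20.12 and 21.18 FPKM in mock cells and 16.02, 17.19 and 17.87 FPKM under BX795 (log2 fold change -0.26, SE 0.05, adjusted p = 0.0107). The collagen IV pair did not pass the test. Col4a1 was at 66.70, 62.14 and 61.02 FPKM under BX795, across the mock range (log2 fold change -0.03, SE 0.05, adjusted p = 0.713). Col4a2 was at 31.43, 33.31 and 31.30 FPKM in mock cells and 30.82, 29.31 and 27.44 FPKM under BX795, just below mock in each library (log2 fold change -0.13, SE 0.05, adjusted p = 0.114). The ratio of Col4a1 to Col4a2 was 1.96 to 2.22 in all 12 libraries. These genes stand head to head on chromosome 8 (GRCm38), and their RefSeq promoter windows share 78 bases.

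Serpinh1 was at 346.97, 321.71 and 323.95 FPKM under BX795, below every mock library (log2 fold change -0.20, SE 0.04, adjusted p = 0.0114). The other 5 expressed processing enzymes did not pass the test, with log2 fold changes from -0.12 for P4ha1 (the catalytic subunit of prolyl 4-hydroxylase) to 0.16 for Loxl2. Loxl1, which crosslinks elastin, was at 41.38, 46.52 and 45.28 FPKM under BX795, below or within the mock range (log2 fold change -0.07, SE 0.06, adjusted p = 0.393). None of the 5 glycoproteins nor Bgn passed. Sparc was at 156.76, 185.79 and 181.10 FPKM (log2 fold change 0.03, SE 0.06, adjusted p = 0.738) and Fbln2 at 95.60, 104.82 and 102.50 FPKM (log2 fold change -0.11, SE 0.04, adjusted p = 0.107). Fbln2 lay below mock in each BX795 library, and Sparc lay on both sides. Plod1 was at 35.79, 36.94 and 37.01 FPKM in mock cells and 37.47, 40.64 and 38.99 FPKM under BX795, above mock in each library (log2 fold change 0.09, SE 0.05, adjusted p = 0.178). Bgn was at 98.08, 111.25 and 114.52 FPKM under BX795, on both sides of mock (log2 fold change 0.05, SE 0.06, adjusted p = 0.599).

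**Figure D2:**
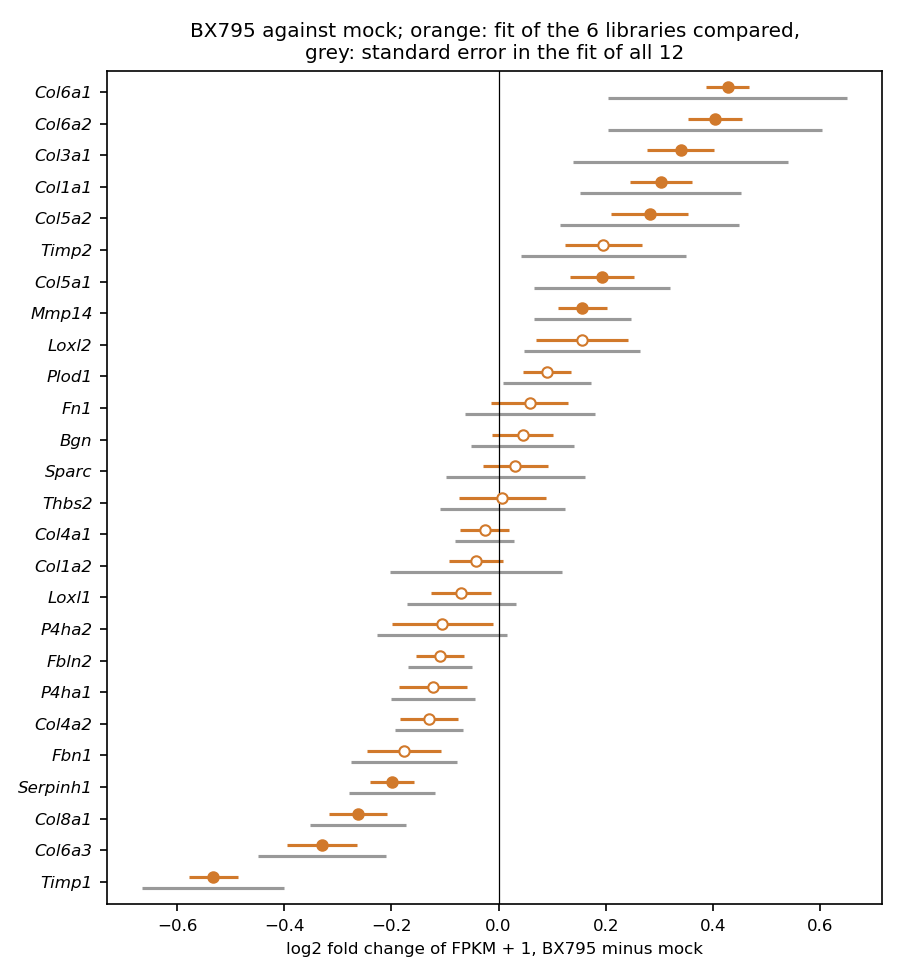
Log2 fold change of FPKM + 1, BX795 minus mock (horizontal axis), for the 26 expressed matrix genes in order of size, with its standard error in the limma fit of the 6 libraries compared (orange; filled circles mark an adjusted p under 0.05) and in the fit of all 12 (grey). The 11 filled circles lie at both ends, 7 above and 4 below 0, and Timp1 is lowest at -0.53.

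The relation of a gene's deviation from the mock mean to its GC content and transcript length differed between libraries in both groups. The correlation with GC content ran from -0.25 to 0.352 over the mock libraries, which themselves set that mean, and from -0.0586 to 0.194 over the BX795 libraries. With transcript length it ran from -0.222 to 0.14 over the mock and from -0.142 to 0.0673 over the BX795 libraries. The part of GC content and length in these differences was not tested. The summed FPKM of 5 smooth muscle and pericyte markers, of which Des was expressed, was 6.48 to 6.66 in mock and 6.86 to 8.07 under BX795. Of the fibroblast markers that are not members, Pdgfrb was at 35.01, 39.37 and 38.84 FPKM under BX795, above its mock range of 30.60 to 30.92 FPKM in every library, as Col1a1, Col3a1, Col6a1 and Col6a2 were above theirs. Vim, at 1845, 2070 and 2057 FPKM, and S100a4, at 4391, 4889 and 4977 FPKM, had ranges that overlapped those of mock. The part of these markers was not tested. In bulk RNA, fewer cells making a transcript and less of it per cell cannot be told apart.

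Promoters of the genes with the smallest p in this fit are shown because Col6a1 and Col6a2, which moved together, and Timp1, which moved the other way, can be compared in sequence. They are the RefSeq windows of GRCm38.p6 from 250 bases before to 50 after the transcript start, and were chosen after the values were seen. Capitals mark matches, on either strand, to the AP-1 site TGANTCA, the SMAD box CAGAC, the TATA box TATAAA or the NF-kappaB site.
Timp1 chrX:20869916-20870215 (+ strand): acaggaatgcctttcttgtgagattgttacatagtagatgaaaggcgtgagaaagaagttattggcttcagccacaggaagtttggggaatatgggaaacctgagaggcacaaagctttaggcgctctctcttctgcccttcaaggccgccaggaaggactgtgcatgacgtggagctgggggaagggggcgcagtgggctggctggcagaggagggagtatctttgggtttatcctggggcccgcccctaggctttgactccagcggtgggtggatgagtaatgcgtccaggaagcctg
Col6a1 chr10:76725995-76726294 (- strand): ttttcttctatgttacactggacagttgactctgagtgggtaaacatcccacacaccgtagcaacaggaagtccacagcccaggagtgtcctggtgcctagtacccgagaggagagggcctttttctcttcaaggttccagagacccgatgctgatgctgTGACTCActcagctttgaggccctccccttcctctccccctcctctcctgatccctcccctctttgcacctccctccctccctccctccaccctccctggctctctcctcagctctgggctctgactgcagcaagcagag
Col6a2 chr10:76623581-76623880 (- strand): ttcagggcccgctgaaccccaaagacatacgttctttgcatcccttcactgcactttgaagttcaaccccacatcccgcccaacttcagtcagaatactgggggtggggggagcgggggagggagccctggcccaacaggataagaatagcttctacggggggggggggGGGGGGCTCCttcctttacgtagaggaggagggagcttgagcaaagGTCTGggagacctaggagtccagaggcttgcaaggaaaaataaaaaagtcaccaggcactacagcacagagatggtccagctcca
The Timp1 window held none of these letters. The Col6a1 window held an AP-1 match with its first base at -90, in TGACTCA, counted from the start. The Col6a2 window held a SMAD box at -35 and an NF-kappaB match at -81, so the windows of these genes, both on chromosome 10, had no searched motif in common. A window was found for 21 of the 26 expressed members. Of those, 1 held the AP-1 letters (7.81% of all 32851 windows did), 11 held a SMAD box (49.6% of all windows), 4 held a TATA box (13.6%), and 5 held an NF-kappaB match (8.46%). A match is a description of the letters and not of binding.

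The second comparison asked whether the plasmid changed these genes. In pEGFP-N1 replicates 1 and 3, Col1a2, Col3a1, Col6a1, Col6a2 and Sparc were below every mock library, and in the library labelled replicate 2 they were above it. With all 3 libraries no member passed the test. In all 12 libraries, limma called 0 of 26 members between pEGFP-N1 and mock (1 of 26 at an unadjusted p under 0.05, and 4.69% of all genes tested), where 0.0672% of all genes tested were called. Ranges did not overlap in 5 of 26 members (1 higher, 4 lower), against 12.9% of all genes tested (5.52% higher, 7.41% lower). The library labelled pEGFP-N1 replicate 2 lay on the other side of mock from replicates 1 and 3 in many members. Without both libraries that stand apart, which leaves 2 libraries with pEGFP-N1 and 2 with BX795 plus pEGFP-N1, 5 members fell and 0 rose, 5 of 26 (19.2%), where 3.76% of all genes tested were called (2.2% higher and 1.56% lower). Ranges then did not overlap in 19 of 26 members (2 higher, 17 lower), against 51.6% of all genes tested (21.0% higher, 30.6% lower).

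Col1a2 had the smallest p. It was at 27.57, 41.68 and 26.50 FPKM in libraries with the label pEGFP-N1, against 38.04 to 41.48 FPKM in mock, so replicates 1 and 3 lay below mock and replicate 2 above it. In all 12 libraries its log2 fold change was -0.35 (SE 0.16, adjusted p = 1.0), and without the libraries that stand apart it was -0.56 (SE 0.07, adjusted p = 0.00045). Sparc followed the same order with 130.16, 190.64 and 130.51 FPKM. Its log2 fold change without those libraries was -0.38 (SE 0.07, adjusted p = 0.00997). Col6a1, at 30.27, 55.42 and 30.71 FPKM, showed -0.32 (SE 0.05, adjusted p = 0.00326) in that fit, and Col6a2, at 16.95, 29.56 and 16.73 FPKM, showed -0.27 (SE 0.06, adjusted p = 0.0359). Col3a1 was at 3.24, 5.69 and 3.10 FPKM and had a log2 fold change of -0.35 (SE 0.08, adjusted p = 0.0415). In all 5 genes, replicates 1 and 3 were under the mock range and replicate 2 was over it. Markers of other cells moved in part with these libraries: the summed FPKM of 7 cartilage and bone markers, of which 2 were expressed, was 18.4 to 19.2 in mock and 21.1 to 28.9 with pEGFP-N1 (Sox9 was at 15.39, 6.26 and 14.93 FPKM), and that of 6 leukocyte markers, of which Cd68 was expressed, was 113 to 119 in mock and 111 to 135 with pEGFP-N1. Runx2, the other expressed cartilage and bone marker, was at 13.10, 14.10 and 12.98 FPKM with pEGFP-N1. It overlapped with mock (12.97, 13.72 and 13.43 FPKM), so the cartilage and bone sum followed Sox9 and not the set. The expressed fibroblast markers that are not members were lower in pEGFP-N1 replicates 1 and 3: Pdgfrb was at 20.56, 41.16 and 21.45 FPKM in the pEGFP-N1 libraries, Vim at 1884, 2073 and 1905 FPKM, and S100a4 at 4125, 4757 and 3821 FPKM, so that replicates 1 and 3 were under every mock library in all 3 genes. The summed FPKM of the fibroblast markers, members included, was 6820 to 7060 in mock and 6210, 7100 and 5930 with pEGFP-N1. The part of these markers in the result was not tested.

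Thbs2, thrombospondin 2, an inhibitor of vessel growth, was at 3.03, 3.17 and 2.96 FPKM in mock cells and 4.06, 3.40 and 3.92 FPKM in libraries with the label pEGFP-N1, of which replicate 2 stands apart. All 3 lay above mock, but the log2 fold change of 0.24 (SE 0.12) had an adjusted p of 1.0, and without both libraries it was 0.30 (SE 0.09, adjusted p = 0.106). Col1a1 was at 48.10, 78.41 and 50.40 FPKM, on both sides of mock. The ratio of Col1a1 to Col1a2 was 1.36 to 1.55 in mock and 1.74, 1.88 and 1.9 in the libraries labelled pEGFP-N1. Col8a1 was at 18.09, 16.32 and 19.97 FPKM, below mock in each library (log2 fold change -0.18, SE 0.09, adjusted p = 1.0). Col6a3 was at 45.13, 36.08 and 49.89 FPKM, Timp1 at 98.23, 81.46 and 94.83 FPKM, and Timp2 at 53.98, 82.05 and 54.60 FPKM. Timp1 was below mock in all 3 libraries, while Timp2 lay on both sides of mock and Col6a3 below or within its range. Col4a1 (61.06, 59.77 and 62.35 FPKM), Col4a2 (29.36, 29.13 and 31.09 FPKM), Serpinh1 (381.78, 320.39 and 371.97 FPKM) and Loxl1 (44.16, 52.78 and 41.66 FPKM) did not pass the test in either fit. Neither did Fbln2 (99.93, 107.77 and 102.34 FPKM), Bgn (92.02, 116.60 and 89.94 FPKM), Mmp14 (33.03, 39.30 and 33.93 FPKM), Col5a1 (32.63, 39.95 and 36.21 FPKM) or P4ha1 (35.99, 30.91 and 34.49 FPKM), nor Col5a2 (6.30, 9.31 and 5.91 FPKM) or Plod1 (31.59, 40.50 and 34.32 FPKM).

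**Figure D3:**
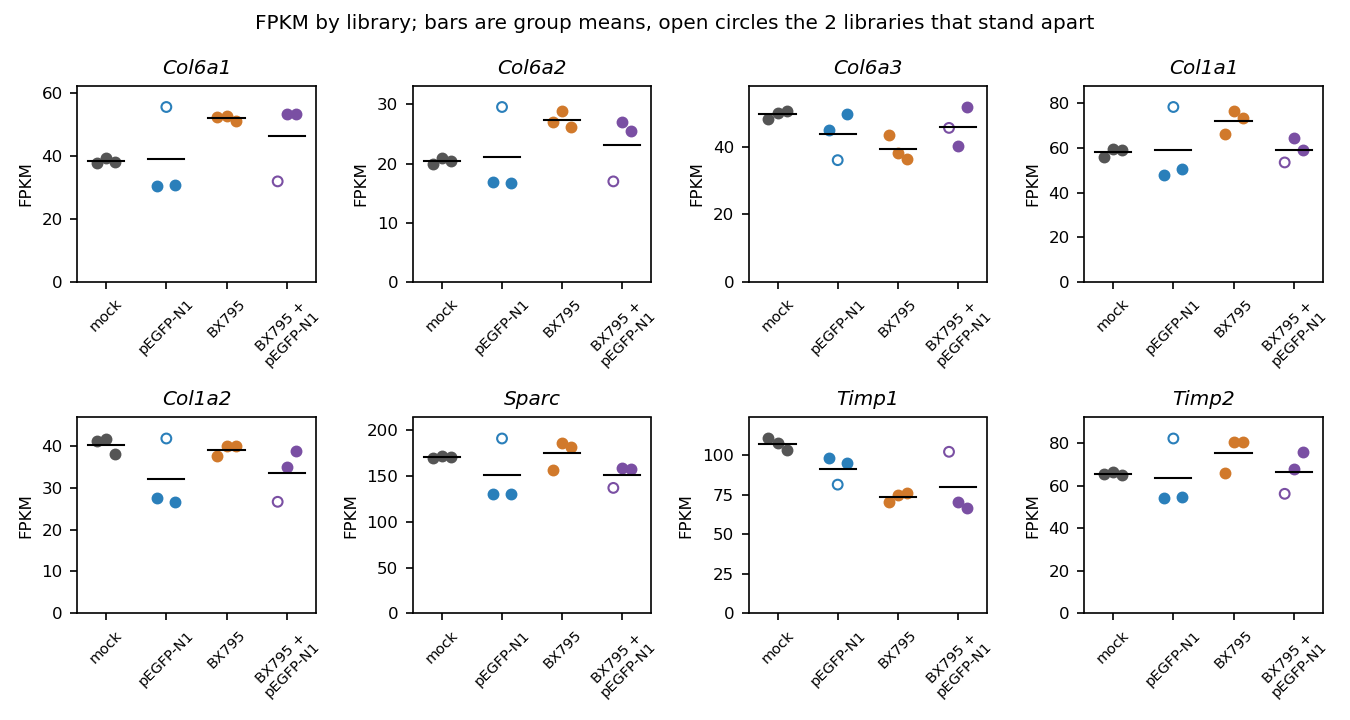
FPKM (vertical axes, from 0) of 8 matrix genes in each library by group, in order of replicate number, with the group mean as a bar and the 2 libraries that stand apart as open circles. Col6a1, Col6a2, Col1a1 and Timp2 are highest in the library labelled pEGFP-N1 replicate 2, and Timp1 is between 66.71 and 76.30 in every filled circle with BX795.

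The effect of BX795 in transfected cells was compared next. In all 12 libraries, limma called 0 of 26 members when BX795 plus pEGFP-N1 was compared with pEGFP-N1 (0 of 26 also at an unadjusted p under 0.05, and 1.59% of all genes tested), and 0.0% of all genes tested. The ranges overlapped in all 26 members, and 2.8% of all genes tested had ranges that did not. Without both libraries that stand apart, 10 members rose and 2 fell, 12 of 26 (46.2%), where 18.1% of all genes tested were called (10.5% higher and 7.6% lower). Leaving out BX795 plus pEGFP-N1 replicate 3 as well, which was chosen after seeing the data and keeps 1 library of that group, left 6 members higher and 3 lower, 9 of 26, where 14.6% of all genes tested were called. Markers of other cells differed between these groups too: the summed FPKM of 7 cartilage and bone markers was 28.9 and 28.3 in pEGFP-N1 replicates 1 and 3 and 16.5 and 21.1 in BX795 plus pEGFP-N1 replicates 2 and 3, with Sox9 at 15.39 and 14.93 against 4.55 and 4.06 FPKM. Runx2, the other expressed marker of that set, was at 13.10 and 12.98 against 11.11 and 16.47 FPKM, on both sides. The summed FPKM of 6 leukocyte markers was 135 and 132 against 126 and 116, with Cd68 at 134.74 and 131.80 against 125.52 and 115.54 FPKM and Ptprc at or near 0. Pdgfrb was at 20.56 and 21.45 against 33.55 and 35.76 FPKM, Vim at 1884 and 1905 against 1887 and 1576 FPKM, and S100a4 at 4125 and 3821 against 4535 and 3850 FPKM. Their part in the result was not tested. Members higher without both libraries that stand apart were Col1a1, Col1a2, Col3a1, Col5a1, Col6a1, Col6a2, Sparc, Plod1 (lysyl hydroxylase 1), Mmp14 and Timp2, and those lower were Timp1 and Thbs2. With replicate 3 also left out, Col5a1 (log2 fold change 0.22), Sparc (0.28), Mmp14 (0.17) and Timp2 (0.32) lost their calls, and Col8a1 (-0.30) gained one as lower. These changes of call rest on 1 library of that group. The ranges did not overlap in 19 of 26 members without both libraries that stand apart (14 higher, 5 lower), against 57.4% of all genes tested (33.7% higher, 23.7% lower).

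Col6a1 showed the largest log2 fold change of the 26 members once both libraries were left out. It was at 31.86, 53.20 and 53.22 FPKM in libraries with the label BX795 plus pEGFP-N1, of which the first stands apart. The log2 fold change against pEGFP-N1 was 0.78 (SE 0.05, adjusted p = 4.39e-06) without both libraries. For Col6a2, at 16.99, 26.98 and 25.51 FPKM, it was 0.61 (SE 0.07, adjusted p = 0.000139), and for Col3a1, at 3.01, 4.93 and 5.80 FPKM, it was 0.61 (SE 0.09, adjusted p = 0.0013). Col1a2, at 26.60, 34.88 and 38.80 FPKM, showed 0.43 (SE 0.07, adjusted p = 0.00252). In each of these genes replicate 1 was the lowest of its group. Timp1 was at 102.22, 70.60 and 66.71 FPKM, with replicate 1 the highest, and its log2 fold change without both libraries was -0.49 (SE 0.06, adjusted p = 0.000534). Thbs2 was at 4.01, 2.70 and 3.06 FPKM, again with replicate 1 the highest (log2 fold change -0.36, SE 0.10, adjusted p = 0.0311). Col5a1 was at 34.73, 40.20 and 52.53 FPKM (log2 fold change 0.41, SE 0.11, adjusted p = 0.0304), and its highest value came from replicate 3, the library with the relation to transcript length. With replicate 3 also left out its log2 fold change was 0.22 (SE 0.09, adjusted p = 0.133), and the call was lost. That gene's transcript is 8406 bases long, and the part of length in this value was not tested.

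Between BX795 plus pEGFP-N1 and BX795, limma called 0 of 26 members and 0.0% of all genes tested, with all 12 libraries and also without both that stand apart, and 1 and 4 members, respectively, had an unadjusted p under 0.05, against 5.56% and 14.8% of all genes tested. Ranges did not overlap in 3 of 26 members with all 12 libraries, against 10.7% of all genes tested, and in 6 of 26 without both libraries, against 17.7%. Bgn had the smallest p, at 93.76, 97.83 and 87.28 FPKM in the libraries so labelled and 98.08 to 114.52 FPKM under BX795. All 3 libraries labelled with both agents, of which replicate 1 stands apart, were lower (log2 fold change -0.21, SE 0.10, adjusted p = 0.604; -0.22, SE 0.07, adjusted p = 0.335 without both libraries). Col1a1, at 53.56, 64.36 and 59.19 FPKM, also lay below every BX795 library (log2 fold change -0.28, SE 0.15, adjusted p = 0.604; -0.22, SE 0.07, adjusted p = 0.335 without both libraries). P4ha1 was at 35.29, 36.22 and 38.88 FPKM in libraries labelled with both agents and at 35.64, 32.93 and 29.63 FPKM under BX795, and the ranges overlapped (log2 fold change 0.17, SE 0.08, adjusted p = 0.604; 0.20, SE 0.07, adjusted p = 0.335 without both libraries).

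Other members differed between the libraries labelled with both agents. Sparc was at 136.81, 158.86 and 157.03 FPKM and Timp2 at 56.11, 67.80 and 75.50 FPKM, each lowest in replicate 1. Serpinh1 (364.51, 350.96 and 306.75 FPKM), Fbln2 (102.30, 93.42 and 93.05 FPKM) and Loxl1 (45.50, 41.93 and 35.84 FPKM) were highest in replicate 1. Col6a3 was at 45.64, 40.20 and 51.83 FPKM, Col8a1 at 17.29, 15.29 and 19.01 FPKM, Mmp14 at 31.45, 37.90 and 39.92 FPKM, Col4a1 at 60.56, 63.71 and 64.41 FPKM and Col4a2 at 29.65, 30.13 and 32.24 FPKM. Replicate 3 was the highest of its group in these 5 genes and the lowest in Serpinh1, Fbln2 and Loxl1. It is the library with the relation to transcript length, and the part of length in these values was not tested. Col5a2 was at 5.59, 7.07 and 9.18 FPKM and Plod1 at 35.84, 39.33 and 37.45 FPKM, each lowest in replicate 1.

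**Figure D4:**
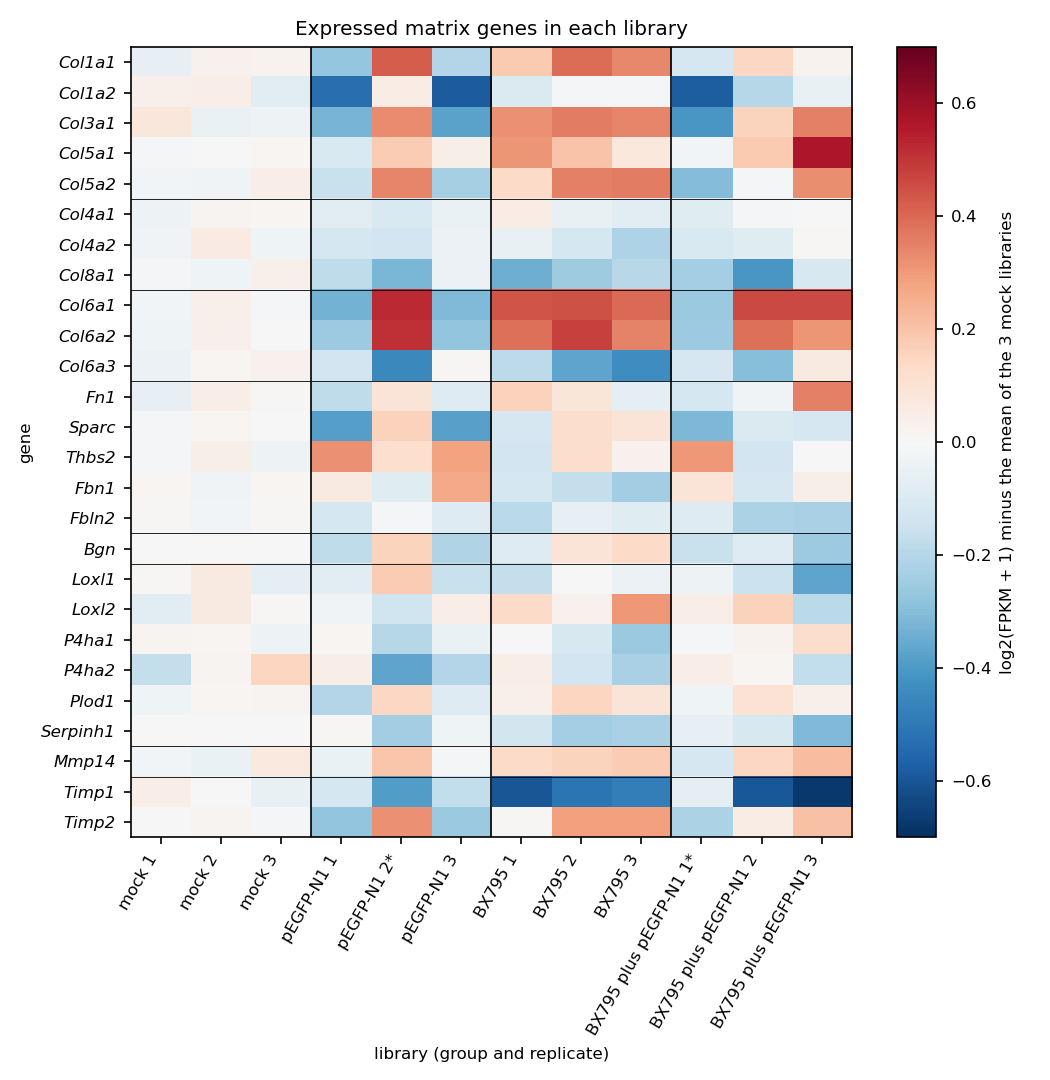
Log2(FPKM + 1) of the 26 expressed matrix genes in each of the 12 libraries, minus the mean of the 3 mock libraries (color; red higher, blue lower), with rows ordered by role and asterisks on the 2 libraries that stand apart. The column labelled pEGFP-N1 2 differs in color from its neighbours pEGFP-N1 1 and 3 in Col6a1, Col6a2 and Col1a1, and the column labelled BX795 plus pEGFP-N1 1 differs from its neighbours in Col6a1, Col6a2 and Timp1.

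Averaged over cells without and with plasmid, the effect of BX795 was called in 0 of 26 members and 0.0% of all genes tested with all 12 libraries (6 of 26 had an unadjusted p under 0.05, and 11.3% of all genes tested). Timp1 had a log2 fold change of -0.37 (SE 0.09, limma adjusted p = 0.301; two-sided exact permutation p = 0.02 within the plasmid groups, where 0.005 is the smallest possible). Fbln2 fell short of the adjusted threshold with -0.11 (SE 0.04, limma adjusted p = 0.392; exact permutation p = 0.01), and Col8a1 with -0.17 (SE 0.06, limma adjusted p = 0.387; exact permutation p = 0.04). Exact permutation of 3 against 3 libraries in the pairwise comparisons cannot go below 0.1. Without both libraries that stand apart, 11 members rose and 5 fell, 16 of 26 (61.5%), where 33.8% of all genes tested were called (20.0% higher and 13.9% lower). Col6a1 rose by 0.61 (SE 0.03, limma adjusted p = 1.06e-06) and Timp1 fell by 0.51 on the log2 scale (SE 0.04, limma adjusted p = 9.07e-06). The mean effect of the plasmid was called in 0 of 26 members and 0.0% of all genes tested with all 12 libraries (2 of 26 at an unadjusted p under 0.05, and 6.12% of all genes tested). Without both libraries it was called in 5 of 26, all lower (Col1a1, Col1a2, Col6a1, Sparc and Bgn), where 4.34% of all genes tested were called (2.05% higher and 2.3% lower). For Col6a1 this mean joins opposite directions. Its log2 fold change with the plasmid was -0.32 without BX795. With BX795, plasmid replicates 2 and 3 were at 53.20 and 53.22 FPKM, above the 50.83 to 52.50 FPKM of BX795 alone. The interaction of Col6a1 and of Col1a2 is given below. With BX795 plus pEGFP-N1 replicate 3 also left out, which keeps 1 library of that group, Col1a1 (log2 fold change -0.20) and Bgn (-0.17) lost their calls. Col3a1 (-0.27) gained one as lower.

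Whether the plasmid effect differed with BX795 was tested as an interaction. With all 12 libraries 0 of 26 members and 0.0% of all genes tested were called (1 of 26 at an unadjusted p under 0.05, and 3.91% of all genes tested). Without both libraries that stand apart, 2 of 26 were called, both higher, where 1.27% of all genes tested were called (0.0864% higher and 1.18% lower). The plasmid effect with BX795 exceeded that without it by 0.47 for Col1a2 (SE 0.09, adjusted p = 0.0304) and by 0.36 for Col6a1 (SE 0.07, adjusted p = 0.029) on the log2 scale. Over all 12 libraries the difference was 0.12 for Col1a2 and -0.16 for Col6a1, so the direction for Col6a1 rests on leaving out both libraries. With BX795 plus pEGFP-N1 replicate 3 also left out, Col6a1 kept its call (0.36, SE 0.07, adjusted p = 0.0292) and Col1a2 lost it (0.40, SE 0.09, adjusted p = 0.0595), and 1.46% of all genes tested were called. The other expressed members did not pass the interaction test in either fit.

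**Figure D5:**
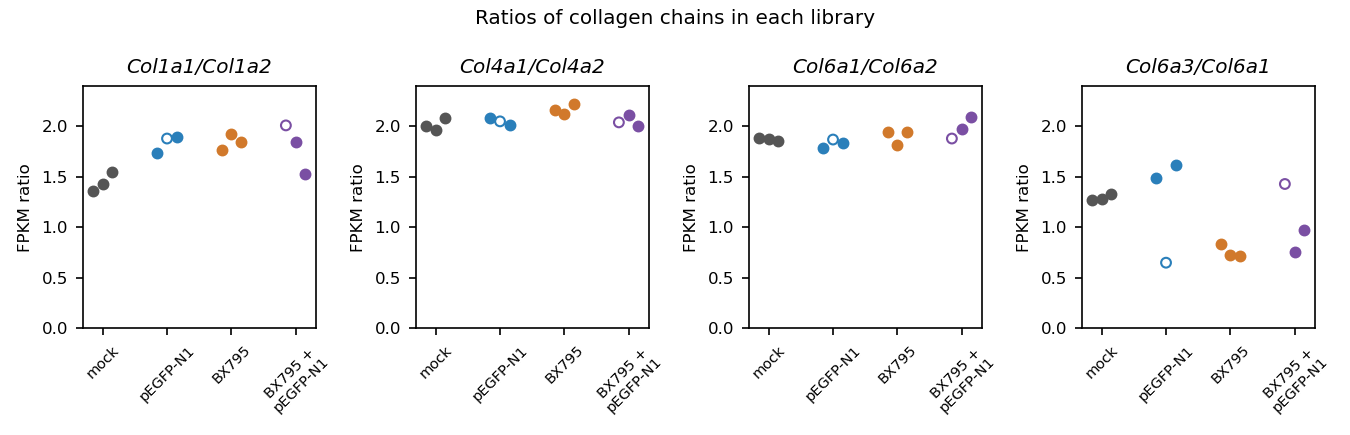
Ratios of FPKM between collagen chains of the same type in each library (vertical axes), by group, with the 2 libraries that stand apart as open circles. Col4a1/Col4a2 and Col6a1/Col6a2 stay within 1.96 to 2.22 and 1.79 to 2.09 in all 12 libraries, while Col6a3/Col6a1 runs from 0.651 to 1.62.

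A wider list of other matrix, matrix receptor and TGF-beta pathway genes, 79 of which were expressed, gives the setting. None of the 79 was called in any of the 7 comparisons over all 12 libraries (22 of 79 had an unadjusted p under 0.05 between BX795 and mock, and 13.8% of all genes tested). On the mock and BX795 libraries alone, 16 rose and 11 fell with BX795, 27 of 79 (34.2%), where 20.6% of all genes tested were called (12.7% higher and 7.97% lower). Loxl3, another lysyl oxidase, was at 13.29, 12.68 and 13.05 FPKM in mock cells and 7.21, 7.86 and 7.94 FPKM under BX795, and fell by 0.69 on the log2 scale (SE 0.06, limma adjusted p = 0.000133). Lamb1, the laminin β1 chain, fell by 0.47 on the log2 scale (SE 0.04, limma adjusted p = 0.000133). With pEGFP-N1, 5 of the 79 (6.33%) rose and 0 fell without both libraries that stand apart, where 3.76% of all genes tested were called (2.2% higher and 1.56% lower). With BX795 plus pEGFP-N1 replicate 3 also left out, 8 rose and 5 fell, 13 of 79 (16.5%), where 8.46% of all genes tested were called. Plat, the tissue plasminogen activator, was at 1.05, 1.02 and 1.14 FPKM in mock cells and 12.52, 1.17 and 11.04 FPKM in libraries with the label pEGFP-N1 (log2 fold change 2.62, SE 0.10, limma adjusted p = 3.28e-08 without both). Loxl3 was at 28.46, 7.75 and 28.55 FPKM in those libraries (log2 fold change 1.08, SE 0.07, limma adjusted p = 2.35e-06 without both). Replicate 2, which stands apart, lay near the mock level for Plat and the BX795 level for Loxl3, whereas the library labelled BX795 plus pEGFP-N1 replicate 1 was at 11.47 FPKM for Plat and 27.86 FPKM for Loxl3.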

How the data were processed

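RNA was measured in 12 libraries of L929 cells. The authors sequenced on a BGISEQ-500, aligned reads to GRCm38.p5 with Bowtie2 2.2.5 (up to 200 alignments per read) and estimated expression with RSEM. The values the authors deposited are FPKM with 2 decimals per Entrez identifier; the annotation is not given in the sources used here. Symbols were taken from RefSeq (GRCm38.p6) for 17450 of 17571 identifiers. No read totals are held in FPKM, so depth and counting precision are unknown.

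Python 3.11.15 and R 4.3.3 were used. Groups came from the labels. Log2(FPKM + 1) was tested with limma 3.58.1 (4 group means, trend, Benjamini-Hochberg adjustment over the 10412 genes with 1 FPKM or more in 3 or more libraries), because the count-based test of the study cannot be run on FPKM. A fold change on this scale understates the change of low genes. The script was tested on simulated data. Members and lists were chosen with earlier results of these data known. Genes given in every library were those with the 2 highest mock means in each role, those called over all 12 libraries (none), and the 3 with the smallest p in each comparison; others were added for a call in a fit of fewer libraries, after their values were seen. Protein sequences were not used here. Replicate numbers were not taken to pair the libraries. Alternatives were another pseudocount and filter, other scalings, no trend in limma, fits restricted to the compared groups, a replicate block, libraries left out, and other call rules.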

Additional observations from a re-analysis of the deposited data

Results flagged for a closer look

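Results were looked at again where the effect of the plasmid differed between cells without and with BX795. Without both libraries that stand apart, the plasmid effect on Col1a2 was higher with BX795 by 0.47 on the log2 scale (SE 0.09, limma adjusted p = 0.0304), and that on Col6a1 by 0.36 (SE 0.07, limma adjusted p = 0.029). With all 12 libraries neither was called, and the difference was 0.12 for Col1a2 and -0.16, of opposite direction, for Col6a1. With BX795 plus pEGFP-N1 replicate 3 also left out, Col6a1 kept its call (0.36, limma adjusted p = 0.0292) and Col1a2 lost it (0.40, limma adjusted p = 0.0595). For Col4a2, every library labelled pEGFP-N1 was below the mock mean and every library labelled BX795 plus pEGFP-N1 above the BX795 mean, 1 library of each standing apart. The difference was 0.17 on the log2 scale (SE 0.09), and the interaction test did not pass (limma adjusted p = 0.842, and 0.586 without both libraries, also with 0.17). Single outlying values were not tested in groups of 3.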

How the results depend on the processing

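With all 12 libraries limma called 0 of 26 members in each of the 7 comparisons, and 0 also with a pseudocount of 0.1, no filter on low values, a mean FPKM of at least 5, rescaling to TPM, division by the 75th percentile, limma without the trend, and the study's thresholds. At an unadjusted p under 0.05 the members counted were 1 for pEGFP-N1 minus mock, 4 for BX795 minus mock, 1 for BX795 plus pEGFP-N1 minus BX795, 6 for the mean BX795 effect, 2 for the mean pEGFP-N1 effect and 1 for the interaction, where 4.69%, 13.8%, 5.56%, 11.3%, 6.12% and 3.91% of all genes tested counted. A fit of only the groups compared called 11 for BX795 minus mock, and 6 to 18 with each library left out, where 8.24% to 42.2% of all genes tested were called. Without both libraries that stand apart, the counts were 5 for pEGFP-N1 minus mock, 8 for BX795 minus mock, 12 for BX795 plus pEGFP-N1 minus pEGFP-N1, 16 and 5 for the mean BX795 and pEGFP-N1 effects, and 2 for the interaction. Of all genes tested, 3.76%, 14.1%, 18.1%, 33.8%, 4.34% and 1.27% were called in that order. Leaving out BX795 plus pEGFP-N1 replicate 3 as well, chosen after seeing the data, gave 6, 11, 9 (6 higher, 3 lower), 18, 4 and 1 in the same order (8.46%, 24.2%, 14.6%, 36.2%, 4.28% and 1.46% of all genes tested), with that group as 1 library assumed to vary like the others. Leaving out 1 library from the fit of all 12 gave 0 to 1 for BX795 minus mock (1 without BX795 plus pEGFP-N1 replicate 1), 0 to 4 for the mean BX795 effect and 0 to 4 for the mean pEGFP-N1 effect (4 without pEGFP-N1 replicate 2 in both), and 0 to 0 otherwise; of the 10412 genes tested these fits called 0 to 149, 0 to 821 and 0 to 362. Why these counts moved beyond the smaller spread left was not tested. The interaction of Col6a1 turned its direction, from -0.16 over all 12 libraries, where it was not called, to 0.36 without both libraries that stand apart, where it was. No other fold change of a named member turned its direction past a threshold. In the 10 libraries left without both, an alternative added after seeing the data, rescaling to TPM gave 4, 6 (4 higher, 2 lower), 11, 13 (11 higher, 2 lower), 4 and 2, and division by the 75th percentile 5, 7 (4 higher, 3 lower), 12, 15 (11 higher, 4 lower), 4 and 2, in that order again. Under these scalings, within the same libraries, 0 of the members called changed sign. Of all 26, Thbs2 changed sign between BX795 and mock, 0 did for pEGFP-N1 minus mock and for BX795 plus pEGFP-N1 minus pEGFP-N1, and at most 4 did in the other comparisons.

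With the replicate number as a block, 0 members were called in every comparison; of the 10412 genes tested it called 5 for the plasmid against mock, 7 for BX795 against mock, 1 for the mean BX795 effect and 0 in each of the other 4. Same-numbered libraries had correlations of their deviations from group means of -0.389 to 0.635, and the numbers were not taken to pair libraries. The libraries that stand apart enter these group means, so the correlations cannot decide whether libraries were paired.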

Other observations

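Of the 11 members under the expression filter, 5 were highest in BX795 plus pEGFP-N1 replicate 3 alone. Thbs1 was at 0.29 FPKM there and at 0.00 to 0.02 FPKM in the other 11 libraries. Postn was at 0.21 FPKM there and at most 0.06 FPKM elsewhere. Col12a1 was at 0.09, Ctgf at 0.08 and Lox at 0.03 FPKM in that library. Its FPKM sum, 467348, was also the lowest of the 12.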
